A study of Rattus norvegicus with 9 samples.

Results

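Neutrophils carry their antimicrobial proteins ready made, and transcripts of 3 genes for such proteins were measured here in rat lung: RatNP-3b, an alpha defensin, and S100a8 and S100a9, the subunits of calprotectin. The set was defined as every probe set annotated to RatNP-3b, Np4, S100a8 or S100a9. It came to 3 of the 8740 probe sets of the array that are not controls, 1 for each of RatNP-3b, S100a8 and S100a9, and to 3 of 4736 genes. No probe set carried the symbol Np4 in the annotation used here, so this alpha defensin has no value. The genes were selected on their intensities in the 4 groups of these same arrays. Their levels and differences are therefore given as a description, without a p-value.

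The 8 lung samples, total RNA of Rattus norvegicus measured on 9 arrays, fell into 4 groups of 2 samples titled a and b. The groups were mechanical ventilation with 100% oxygen, mechanical ventilation with 21% oxygen, spontaneous breathing with 100% oxygen and spontaneous breathing with 21% oxygen. The letter b sample of mechanical 100% was measured on 2 arrays, which were averaged and counted once. The labels give no strain, age, sex or duration, and they do not say that a and b were separate animals, so the p-values quoted for other genes rest on a spread that may be only technical. A line for a lot batch, with no lot in it, stands in the description of 4 arrays: both of spontaneous 21%, letter a of mechanical 100% and 1 of the 2 arrays of its letter b. Mechanical 21% and spontaneous 100% had it on no array, so their differences from spontaneous 21% cannot be told apart from what that line stands for, other than through the single sample measured both ways.

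Alpha defensins are short cationic peptides held in the azurophil granules of neutrophils and in Paneth cells of the gut, and they disrupt the membranes of microbes. Their transcripts belong to neutrophil precursors in the bone marrow and are scarce in mature neutrophils. S100A8 and S100A9 bind calcium and form calprotectin, which makes up much of the cytosolic protein of neutrophils, withholds zinc and manganese from microbes and signals through Toll-like receptor 4 and the receptor for advanced glycation end products. Unlike the defensins, the calprotectin subunits are transcribed in mature neutrophils, in monocytes and in stressed epithelium. In whole tissue, a change in the number of cells of a type and a change in RNA per cell cannot be told apart.

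The regions at the starts of these genes show how alike RatNP-3b and Np4 are. In the RefSeq tables for GRCr8, 3 of the 4 genes had a promoter window, running from 250 bases before the annotated start to 50 bases after it. The windows of RatNP-3b (chr16:77248928-77249227, minus strand) and Np4 (chr16:77199593-77199892, minus strand) held the same base at 259 of 281 aligned positions, or 92.2%, with 38 gap positions. In the pair below, capitals mark the bases that differ from the other window or have no partner in it.
RatNP-3b: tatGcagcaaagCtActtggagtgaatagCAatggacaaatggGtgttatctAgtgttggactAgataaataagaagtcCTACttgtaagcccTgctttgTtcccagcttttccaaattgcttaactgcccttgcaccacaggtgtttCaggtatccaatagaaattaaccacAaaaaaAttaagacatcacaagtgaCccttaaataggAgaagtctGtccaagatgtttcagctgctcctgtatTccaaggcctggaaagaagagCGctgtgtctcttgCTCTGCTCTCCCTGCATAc
Np4: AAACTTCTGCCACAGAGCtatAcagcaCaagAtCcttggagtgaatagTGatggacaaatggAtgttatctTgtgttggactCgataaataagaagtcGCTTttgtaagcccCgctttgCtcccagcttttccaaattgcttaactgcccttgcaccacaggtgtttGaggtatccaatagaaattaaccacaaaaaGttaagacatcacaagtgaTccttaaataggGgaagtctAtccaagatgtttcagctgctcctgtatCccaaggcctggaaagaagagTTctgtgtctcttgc
The RatNP-3b window was 91.5% identical to that of the neighbouring Defa11, but 57.7% to that of Defa9 and 61.8% to that of S100a9. These percentages leave out 10, 56 and 92 gap positions, in that order. The RatNP-3b probe set has the suffix that the maker of the array gave to probe sets matching several transcripts. Its signal may therefore include transcripts of other alpha defensins, which was not tested, since the windows shown are not what the probes measure.

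S100a9 is shown because its window held a TATAAA, in capitals, whose first base lies at position -42 from the annotated start (chr2:178490573-178490872, minus strand).
S100a9: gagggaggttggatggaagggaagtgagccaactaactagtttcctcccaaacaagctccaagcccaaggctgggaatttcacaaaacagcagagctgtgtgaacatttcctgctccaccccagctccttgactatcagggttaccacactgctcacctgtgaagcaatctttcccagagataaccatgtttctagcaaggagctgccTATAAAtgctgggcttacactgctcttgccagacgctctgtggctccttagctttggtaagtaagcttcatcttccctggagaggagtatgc
TATAAA was present on either strand in 14.2% of 33469 promoter windows, and in neither defensin window. TTGCNNAA, a form of the motif bound by C/EBP factors, began at -133 in RatNP-3b and at -114 in Np4, was present in 10.6% of all windows and was absent from that of S100a9. These are matches of letters only. In the gene order of the table, S100a8 and S100a9 lie side by side with 0 genes between them, and 2 genes, Defa10 and Defa11, lie between Np4 and RatNP-3b.

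RatNP-3b was detected in the mechanically ventilated lungs, and more so with 21% than with 100% oxygen. Its intensity was 295 in letter a of mechanical 100% and 265 and 261 on the arrays of letter b. In mechanical 21% it was 1117 and 1297. In spontaneous 100% it was 37.3 and 83.1, and in spontaneous 21% it was 8.83 and 28.7. No value of a ventilated sample overlapped with one of a spontaneously breathing sample, and the same held for mechanical 100% and mechanical 21%. How many of all probe sets separate the groups without overlap, here or for the genes below, was not counted.

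The group means of RatNP-3b were 279 ± 22.6 in mechanical 100%, 1207 ± 127 in mechanical 21%, 60.2 ± 32.3 in spontaneous 100% and 18.8 ± 14.1 in spontaneous 21% (SD, n = 2 each). The 4 spontaneous readings lie within the scatter of the array about 0. Deposited values reached below 0, with the 5th percentile of an array between -180 and -117, and 18.4% to 19.9% of the probe sets of an array stood at or below 0. The order of the spontaneous groups is therefore not resolved. On the 9 arrays the probe set stood at the 51.3 to 52.8 percentile in mechanical 100%, the 79.2 and 81.2 percentile in mechanical 21%, the 27.0 and 35.7 percentile in spontaneous 100% and the 21.3 and 24.9 percentile in spontaneous 21%.

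**Figure D1:**
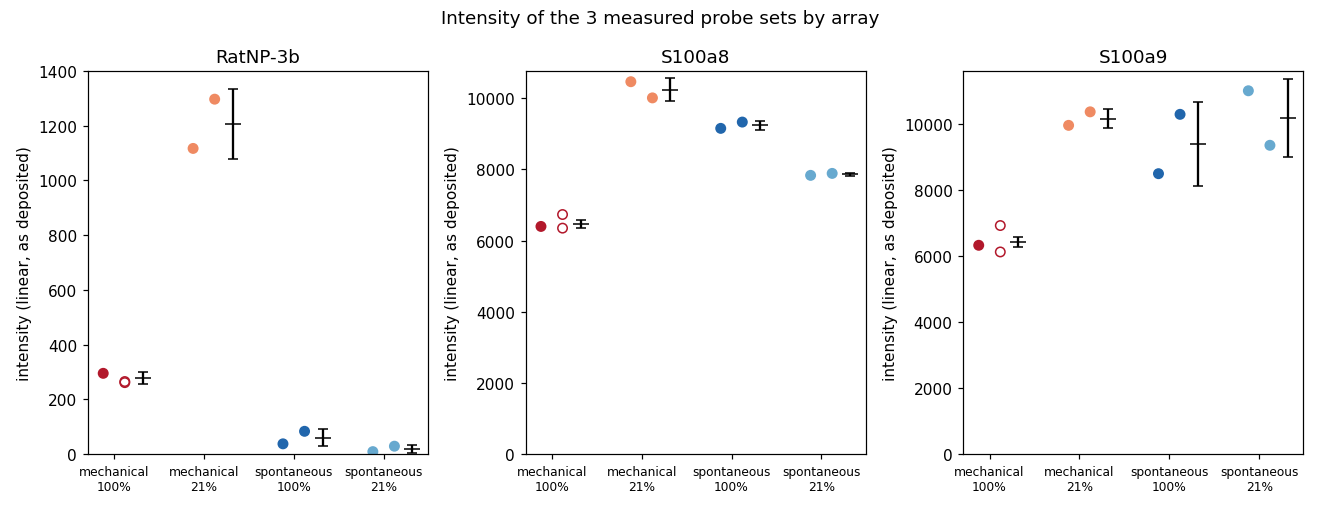
Deposited intensity (linear scale, from 0) of RatNP-3b, S100a8 and S100a9 on each array, by group; open circles are the 2 arrays of the same sample, and the bars at the right of each group are the mean and SD of its 2 samples. RatNP-3b stands at 1117 and 1297 in mechanical 21% and at 83.1 or less in the spontaneous groups, whereas S100a8 and S100a9 stay between 6130 and 11019 on all 9 arrays.

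Differences are of log2(intensity + 40). The offset shrinks them where signals are low. RatNP-3b was higher in mechanical 21% than in spontaneous 21% by 4.42 ± 0.30 (log2 difference ± SE from the fit over all probe sets). With 100% oxygen the same comparison of ventilation gave 1.71 ± 0.30. Mechanical 100% was lower than mechanical 21%, at -1.96 ± 0.30, and spontaneous 100% stood 0.75 ± 0.30 above spontaneous 21%. The ventilation difference with 100% oxygen minus that with 21% oxygen was -2.72 ± 0.42.

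How large these differences are depends on the offset, because the spontaneous level is near 0. With an offset of 8 the ventilation difference of RatNP-3b was 5.61 with 21% oxygen and 2.16 with 100% oxygen, and with an offset of 80 it was 3.71 and 1.38. The difference between the mechanical groups rests on signals well above 0 and lay between -2.20 and -1.96 with quantile normalization (-2.12), cyclic loess normalization (-2.20), the lot line as a block (-2.03) and none of these (-1.96).

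S100a8 was bright in every lung and varied little. It read 6399 in letter a of mechanical 100% and 6734 and 6351 on the arrays of letter b, 10468 and 10013 in mechanical 21%, 9156 and 9333 in spontaneous 100%, and 7835 and 7890 in spontaneous 21%. As deposited, the 4 groups did not overlap, which was not counted for other probe sets. Their order from high to low was mechanical 21%, spontaneous 100%, spontaneous 21% and mechanical 100%. The place of mechanical 100% depended on the scaling of the arrays: its log2 difference from spontaneous 100% was -0.01 after quantile normalization. The means were 6470 ± 101, 10240 ± 322, 9244 ± 125 and 7863 ± 39.0 in mechanical 100%, mechanical 21%, spontaneous 100% and spontaneous 21% (SD, n = 2 each).

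The log2 difference of S100a8 between mechanical 21% and spontaneous 21% was 0.38 ± 0.10, and that between mechanical 100% and spontaneous 100% was -0.51 ± 0.10. With 100% oxygen S100a8 stood 0.23 ± 0.10 above 21% oxygen in spontaneous lungs, and in ventilated lungs the oxygen difference was -0.66 ± 0.10. The ventilation difference with 100% oxygen minus that with 21% was -0.89 ± 0.14.

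S100a9 read 6332 in letter a of mechanical 100% and 6931 and 6130 on the arrays of letter b, 9970 and 10380 in mechanical 21%, 8504 and 10304 in spontaneous 100%, and 11019 and 9365 in spontaneous 21%. The mechanical 100% samples lay below all others, which was not counted for other probe sets, and the other 3 groups overlapped. The means were 6431 ± 140, 10175 ± 290, 9404 ± 1272 and 10192 ± 1169 in mechanical 100%, mechanical 21%, spontaneous 100% and spontaneous 21% (SD, n = 2 each).

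Between mechanical 21% and spontaneous 21% the log2 difference of S100a9 was 0.00 ± 0.14. It was -0.54 ± 0.14 between mechanical 100% and spontaneous 100%, and -0.66 ± 0.14 between mechanical 100% and mechanical 21%. Spontaneous 100% against spontaneous 21% gave -0.12 ± 0.14. The spontaneous groups and mechanical 21% do not differ beyond their spread in S100a9.

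The low readings of both calprotectin genes in mechanical 100% coincide with a property of those arrays. Among the 8740 probe sets S100a8 ranked between 119 and 283 from the brightest and S100a9 between 146 and 226, and bright probe sets in general were lower there. The 99th percentile of intensity was 7111 to 8352 on the 3 mechanical 100% arrays and 9934 to 14547 on the others. Of the 174 other probe sets in the brightest 2% by mean, 99.4% were lower in mechanical 100% than in spontaneous 100%, with a median log2 difference of -0.66. In mechanical 100% against mechanical 21% the figures were 98.3% and -0.68. For oxygen, S100a8 and S100a9, at -0.66 each, lay near that median, and 94 and 93 of the 174 had a lower difference. For ventilation, at -0.51 and -0.54, they lay just above the upper quartile of -0.55, and 136 and 131 of the 174 had a lower difference.

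After quantile normalization, which gives the arrays a common distribution, the ventilation difference with 100% oxygen was -0.01 for S100a8 and -0.04 for S100a9. The oxygen difference between the mechanical groups became -0.14 and -0.15. After cyclic loess normalization these 4 values were -0.19, -0.20, -0.33 and -0.31. The median of all tested probe sets, 0.13 and 0.14 in these comparisons as deposited, was -0.01 and 0.01 after quantile normalization, so each deposited difference can also be read against that shift.

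The excess of S100a8 in mechanical 21% over spontaneous 21% kept its size under these scalings, at 0.39 with quantile and 0.40 with cyclic loess normalization, and was 0.30 with the lot line as a block. Of the 174 bright probe sets, 173 had a lower log2 difference than S100a8 there, with a median of -0.22, and 143 had a lower one than S100a9. In spontaneous 100% against spontaneous 21%, S100a8 was at 0.26 under both scalings and 161 of the 174 had a lower difference. S100a9 was at 0.12 and 0.02 for ventilation with 21% oxygen, and its small oxygen difference in spontaneous lungs turned to 0.01 with quantile normalization and was -0.09 with cyclic loess.

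**Figure D2:**
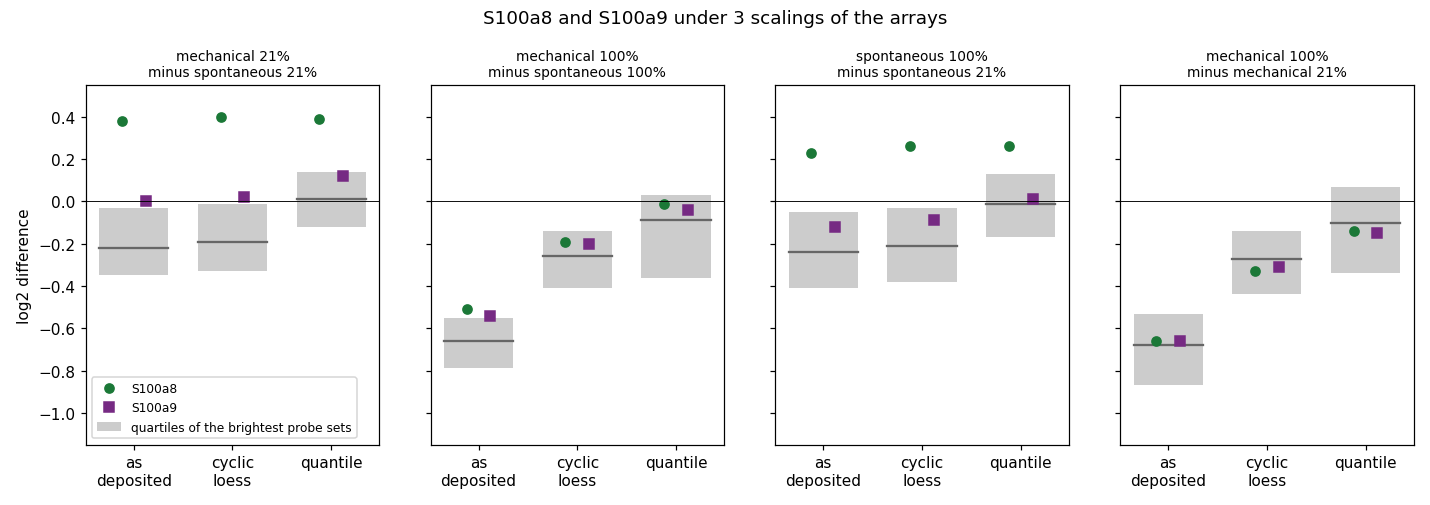
Log2 difference of S100a8 (circles) and S100a9 (squares) in 4 comparisons, with the arrays as deposited, after cyclic loess and after quantile normalization; grey boxes span the lower to upper quartile of the 174 other brightest probe sets and the line in each is their median. In both comparisons with mechanical 100% the symbols move with the grey boxes, whereas S100a8 stays at 0.38 to 0.40 in mechanical 21% minus spontaneous 21%.

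As deposited, RatNP-3b did not follow the calprotectin genes across the lungs. Over the 8 samples the Pearson correlation of log2 levels was 0.77 between S100a8 and S100a9, 0.31 between RatNP-3b and S100a8, and -0.10 between RatNP-3b and S100a9. These values describe 4 groups of 2 samples, which share the scaling of their arrays. The correlations were not computed after other scalings. Quantile normalization moved S100a8 in mechanical 100% minus spontaneous 100% from -0.51 to -0.01, so its correlation with RatNP-3b may depend on the scaling. Among 3180 genes compared with each, those most like RatNP-3b were Casp2 (0.970), Lypd8l1 (0.967), Ripk3 (0.944), Rfc4 (0.942) and Rbp4 (0.936). Rbp4, the plasma carrier of retinol, averaged 1042 ± 83.7 in mechanical 100%, 1889 ± 42.6 in mechanical 21%, 962 ± 8.15 in spontaneous 100% and 835 ± 12.2 in spontaneous 21% (SD, n = 2 each).

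Most like S100a8 were Fabp4 (0.989), Ndufs6 (0.988), Cidea (0.983), Ucp1 (0.979) and Lgals1 (0.976). Fabp4 is a fatty acid carrier of adipocytes, Cidea a lipid droplet protein and Ucp1 the uncoupling protein of brown fat. Ucp1 averaged 34.5 ± 4.79 in mechanical 100%, 6213 ± 48.3 in mechanical 21%, 1093 ± 7.99 in spontaneous 100% and 260 ± 16.4 in spontaneous 21% (SD, n = 2 each), the same order of groups as S100a8 had as deposited. The genes most like S100a9 were Rpl18 (0.993), Rpsa (0.987), Rpl13a (0.987), Rpl6 (0.985), all for ribosomal proteins, and Hsp90ab1 (0.983), a cytosolic chaperone. Their readings in mechanical 100% were low as well, Rpl18 for example at 6661 ± 221, against 11162 ± 909 in mechanical 21%, 10293 ± 2142 in spontaneous 100% and 11627 ± 1539 in spontaneous 21%.

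Genes of other families were compared by limma's test with Benjamini-Hochberg adjustment over all 5244 tested probe sets, a call being an adjusted p under 0.05. The lists were chosen with earlier results of these data known, so calls of listed genes are not independent evidence. In mechanical 21% minus spontaneous 21%, 6.998% of the tested probe sets were called higher and 7.49% lower. The shares were 16.6% and 10.4% in mechanical 100% minus spontaneous 100%, 7.06% and 9.71% in spontaneous 100% minus spontaneous 21%, and 20.7% and 14.4% in mechanical 100% minus mechanical 21%. For the ventilation difference with 100% oxygen minus that with 21%, called the interaction below, they were 16.9% and 10.5%. Higher calls made up 58.9% of all calls in mechanical 100% minus mechanical 21%, against 48.6% with quantile and 48.4% with cyclic loess normalization. In mechanical 100% minus spontaneous 100% the share was 61.4%, against 53.6% and 53.7%. For the interaction this share was 61.7%, against 51.2% and 49.0%. Comparisons that have a group in common are not independent of each other.

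Of 15 listed alpha and beta defensins, 4 were measured, RatNP-3b included, and 2 others were tested. Defa5, an alpha defensin of Paneth cells, read 239 and 210 in mechanical 100%, 512 and 342 in mechanical 21%, 73.4 and 152 in spontaneous 100%, and 102 and 189 in spontaneous 21%. The mechanical samples were higher than the spontaneous ones, by 210 against 189 at the closest. The share of all probe sets separated in this way was not counted. Defa5 rose in mechanical 21% over spontaneous 21% (1.34 ± 0.35, adjusted p = 0.04), and the difference was 0.84 ± 0.35 with 100% oxygen (adjusted p = 0.12). The call was lost in 11 of 20 other settings, among them the fits without any 1 of the 4 mechanical samples or without letter a of spontaneous 21%, and the adjusted p ran between 0.04 and 0.2 with single samples left out. Its correlation with RatNP-3b over the 8 samples was 0.89.

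The beta defensins are made by epithelium rather than by neutrophils. Defb4 read 7361 and 7619 in mechanical 100%, 10959 and 11509 in mechanical 21%, 8606 and 10185 in spontaneous 100%, and 13761 and 12035 in spontaneous 21%. It fell with oxygen in ventilated lungs (-0.58 ± 0.13, adjusted p = 0.01) and in spontaneous lungs (-0.46 ± 0.13, adjusted p = 0.045). As with S100a8 and S100a9, the difference between the mechanical groups was of the size seen in other bright probe sets, and with quantile normalization it was 0.02. The spontaneous call was lost in 14 of 20 other settings, with adjusted p between 0.038 and 0.19 when single samples were left out. Defb1 was too dim to be tested, with means of 129 ± 33.6, 92.5 ± 4.17, 126 ± 17.6 and 98.0 ± 23.5 in mechanical 100%, mechanical 21%, spontaneous 100% and spontaneous 21% (SD, n = 2 each).

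The S100 family had 7 of 16 listed genes on the array, and 4 besides the calprotectin subunits were tested. S100a4, a calcium-binding protein of fibroblasts and leukocytes, read 2802 and 2727 in mechanical 100%, 3606 and 3523 in mechanical 21%, 4692 and 4501 in spontaneous 100%, and 2133 and 2784 in spontaneous 21%. Its highest samples were those of spontaneous 100%. S100a4 rose with oxygen in spontaneous lungs (0.90 ± 0.14, adjusted p = 0.0056) and fell with ventilation in 100% oxygen (-0.73 ± 0.14, adjusted p = 0.0097). Its ventilation difference was lower with 100% than with 21% oxygen (interaction -1.27 ± 0.20, adjusted p = 0.0031), the direction in which the values of S100a8 and S100a9 also lie. As deposited, 96.0% of the 174 other brightest probe sets lay in that direction too, with a median of -0.48. After quantile normalization that median was -0.16, with S100a8 at -0.41 and S100a9 at -0.16. The call for S100a4 in mechanical 21% over spontaneous 21% (0.54 ± 0.14, adjusted p = 0.037) was lost in 13 of 20 other settings.

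S100a10, the partner of annexin A2, had a negative interaction as well (-0.74 ± 0.18, adjusted p = 0.017), which the fits without letter b of mechanical 100% or letter a of mechanical 21% did not call (highest adjusted p 0.058). S100g, the vitamin D-dependent calcium binder, went the other way. It was higher in mechanical 100% than in spontaneous 100% (0.40 ± 0.11, adjusted p = 0.03) and lower in spontaneous 100% than in spontaneous 21% (-0.43 ± 0.11, adjusted p = 0.032). Those calls were lost in 9 of 21 and 10 of 20 other settings. S100a1 was called in no comparison, with adjusted p between 0.1 and 0.99, and S100b, between -302 and 104, was too dim to be tested. In the interaction 1 of the 4 was called higher and 2 lower (16.9% and 10.5% of all tested probe sets). The higher one, S100g, was lost in 13 of 19 other settings. The median of the 4 was -0.33, against 0.15 over the 3181 genes tested.

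Of 20 other neutrophil granule genes listed, 8 were measured and 7 tested, and none of the 7 had its highest group mean in mechanical 21%, where RatNP-3b had. For Srgn this is within the spread, at 1522 ± 159 in mechanical 100% and 1488 ± 98.0 in mechanical 21% (SD, n = 2 each). In mechanical 21% minus spontaneous 21% Mmp8 was called higher and Lcn2 lower, 1 of 7 in each direction beside 6.998% and 7.49% of all tested probe sets, and the median of the 7 was 0.11, against -0.05 over all genes. In mechanical 100% minus spontaneous 100%, 3 were called higher and 2 lower (16.6% and 10.4% of all tested probe sets) with a median of 0.22 (all genes 0.11). In mechanical 100% minus mechanical 21% the calls were 3 higher and 1 lower (20.7% and 14.4% of all) with a median of 0.49 (all genes 0.12).

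Lcn2, a siderophore-binding protein of neutrophil granules and injured epithelium, read 3997 and 4433 in mechanical 100%, 2767 and 3143 in mechanical 21%, 2374 and 2124 in spontaneous 100%, and 4142 and 3998 in spontaneous 21%. It rose with ventilation in 100% oxygen (0.89 ± 0.12, adjusted p = 0.0029) and fell with oxygen in spontaneous lungs (-0.85 ± 0.12, adjusted p = 0.0044). The ventilation difference was higher with 100% than with 21% oxygen (interaction 1.35 ± 0.17, adjusted p = 0.0015), the opposite sign to the values of RatNP-3b, S100a8 and S100a9. As deposited, 96.0% of the 174 other brightest probe sets shared the sign of S100a8 and S100a9. In mechanical 21% Lcn2 was lower than in spontaneous 21% (-0.46 ± 0.12, adjusted p = 0.043), a call lost in 12 of 20 other settings.

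Mmp8, the collagenase of neutrophils, read 1666 and 1395 in mechanical 100%, 1155 and 889 in mechanical 21%, 1416 and 1205 in spontaneous 100%, and 649 and 600 in spontaneous 21%. Spontaneous 21% was the lowest group, below every other sample. Mmp8 rose with oxygen in spontaneous lungs (1.02 ± 0.17, adjusted p = 0.008), which became an adjusted p of 0.054 without letter a of spontaneous 100%. It rose with ventilation in 21% oxygen (0.67 ± 0.17, adjusted p = 0.038), and this call was lost in 10 of 20 other settings, including the fits without any 1 of the spontaneous samples or of the mechanical 21% samples (highest adjusted p 0.19).

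Ctsc, the protease that activates granule serine proteases, read 5220 and 5293 in mechanical 100%, 2958 and 3012 in mechanical 21%, 2738 and 2741 in spontaneous 100%, and 3617 and 3304 in spontaneous 21%. It rose in mechanical 100% over spontaneous 100% (0.93 ± 0.11, adjusted p = 0.0015) and over mechanical 21% (0.81 ± 0.11, adjusted p = 0.0014), and no other setting lost either call. Lyz2, the lysozyme of macrophages and neutrophils, fell in mechanical 100% against mechanical 21% (-1.16 ± 0.21, adjusted p = 0.0047). Hp (haptoglobin) rose with oxygen in spontaneous lungs (0.63 ± 0.15, adjusted p = 0.026), a call lost in 6 of 20 other settings. Mmp9 was called in mechanical 100% minus spontaneous 100% (0.58 ± 0.18, adjusted p = 0.046) and lost in 16 of 21. Srgn, the proteoglycan of granules, was called in no comparison, with adjusted p between 0.17 and 0.91.

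Surface and migration genes of neutrophils were measured for 11 of 24 listed, and 9 were tested. In mechanical 21% minus spontaneous 21% Il1r2, the decoy receptor for interleukin-1, rose (0.67 ± 0.13, adjusted p = 0.013), and so did Coro1a, an actin-binding protein of all leukocytes (1.14 ± 0.20, adjusted p = 0.0097). Il1r2 read 1300 and 1444 in mechanical 100%, 1791 and 1632 in mechanical 21%, 1422 and 1388 in spontaneous 100%, and 998 and 1118 in spontaneous 21%. Its call was lost without letter a of spontaneous 21% or either sample of mechanical 21% (highest adjusted p 0.08), and that of Coro1a without letter b of mechanical 21% (highest adjusted p 0.067). Coro1a read 7288 and 7994 in mechanical 21% and between 2752 and 4297 in the other 6 samples. Il1r2, Coro1a and Anxa1 were the tested genes of this list with their highest mean in mechanical 21%. Anxa1 averaged 4375 ± 481 in mechanical 100%, 6870 ± 116 in mechanical 21%, 6023 ± 637 in spontaneous 100% and 5997 ± 153 in spontaneous 21% (SD, n = 2 each).

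The chemokine receptor Cxcr1 rose in mechanical 100% over mechanical 21% (0.86 ± 0.15, adjusted p = 0.0042), with 1226 and 987 in mechanical 100%, against 609 and 565 in mechanical 21%. The chemokine receptor Cxcr2, a defining neutrophil marker, was called in no comparison: it averaged 262 ± 67.2 in mechanical 100%, 206 ± 6.60 in mechanical 21%, 234 ± 11.8 in spontaneous 100% and 220 ± 53.8 in spontaneous 21% (SD, n = 2 each), with adjusted p between 0.44 and 0.89. C5ar1, the receptor for complement C5a, was not called either, with adjusted p between 0.44 and 0.9. Il1r2 and Coro1a were the 2 calls among the 9 genes in mechanical 21% minus spontaneous 21% (6.998% of all tested probe sets were called higher), and in the interaction 3 of the 9 were called, all lower (10.5% of all).

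**Figure D3:**
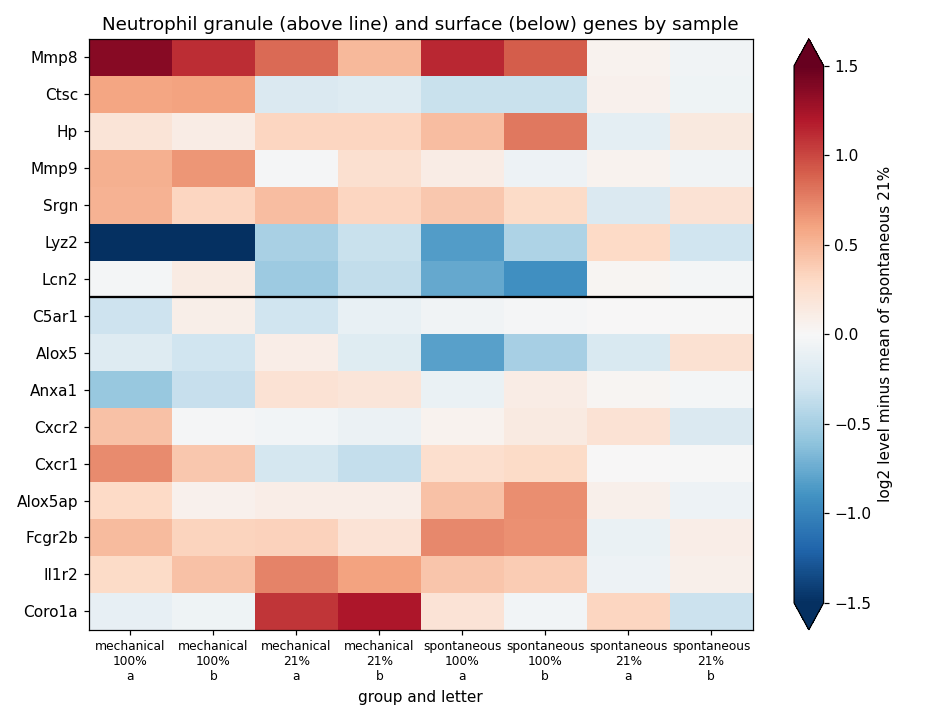
Log2(intensity + 40) of 7 neutrophil granule genes and 9 surface and migration genes in each sample, minus the mean of spontaneous 21% for that gene; red is higher, blue is lower, and colours beyond 1.5 in either direction are not graded further. Coro1a is high in both mechanical 21% samples, Mmp8 is above spontaneous 21% in all 3 other groups, and Lyz2 is at its lowest in mechanical 100%.

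Signals that draw neutrophils into tissue differed among themselves in the order of the groups. Il6 was listed below 0 in both spontaneous 21% samples and read 432 and 425 in mechanical 100%, 377 and 384 in mechanical 21%, and 485 and 461 in spontaneous 100%. Cxcl6, an attractant of neutrophils, read 537 and 539 in mechanical 100%, 295 and 310 in mechanical 21%, 192 and 224 in spontaneous 100%, and 446 and 389 in spontaneous 21%. It rose with ventilation in 100% oxygen (1.22 ± 0.18, adjusted p = 0.0039). Il1a rose in mechanical 100% over mechanical 21% (1.11 ± 0.14, adjusted p = 0.0011). Cxcl3, another neutrophil attractant, had means of 5403 ± 218, 7383 ± 133, 5936 ± 257 and 7185 ± 1357 in mechanical 100%, mechanical 21%, spontaneous 100% and spontaneous 21% (SD, n = 2 each). Of 8 tested attractants and growth factors, 2 were called in mechanical 21% minus spontaneous 21%, both higher (6.998% of all tested probe sets). They were Il6 and Il1b, and the call for Il1b was lost in 11 of 20 other settings. Of the same 8, 3 were called higher and 1 lower (20.7% and 14.4% of all) in mechanical 100% minus mechanical 21%.

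Icam1, the endothelial ligand of neutrophil integrins, read 5350 and 4804 in mechanical 100%, 3241 and 3266 in mechanical 21%, 2081 and 2136 in spontaneous 100%, and 3680 and 3544 in spontaneous 21%. Its mechanical 100% samples were the highest. Icam1 rose with ventilation in 100% oxygen (1.25 ± 0.11, adjusted p = 4.5e-04), and the ventilation difference was higher there than with 21% oxygen (interaction 1.40 ± 0.15, adjusted p = 7.9e-04). Selp, the P-selectin on which neutrophils roll, rose with ventilation in 21% oxygen (0.88 ± 0.15, adjusted p = 0.01), with an adjusted p of 0.071 without letter a of mechanical 21%. Of 6 tested adhesion genes, 3 were called in the interaction, all higher (16.9% of all tested probe sets). Besides Icam1 they were Icam2, lost in 9 of 19 other settings, and Pecam1, lost in 7 of 19.

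Among myeloid transcription factors, Cebpb, a C/EBP factor of the acute phase and of granulocytes, was highest in mechanical 100%, where RatNP-3b was not. It read 7561 and 7311 in mechanical 100%, 3868 and 3732 in mechanical 21%, 4763 and 4099 in spontaneous 100%, and 4966 and 4378 in spontaneous 21%. Cebpb rose in mechanical 100% over mechanical 21% (0.96 ± 0.12, adjusted p = 0.0013) and over spontaneous 100% (0.75 ± 0.12, adjusted p = 0.0056). Cebpe and Gfi1, factors of granulocyte precursors, were too dim to be tested. Cebpe was at or below 0 in all samples, and Gfi1 read 68.5 in both mechanical 100% samples, 106 and 125 in mechanical 21%, 23.6 and 39.8 in spontaneous 100%, and 36.4 and 52.2 in spontaneous 21%.

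Of the receptors and signalling partners of calprotectin, 6 of 10 were measured and all 6 were tested. Ager, the receptor for advanced glycation end products and a marker of type 1 alveolar cells in lung, fell in mechanical 100% against mechanical 21% (-0.92 ± 0.15, adjusted p = 0.0037). Its readings were 4999 and 6094 in mechanical 100%, 9983 and 10954 in mechanical 21%, 8370 and 10084 in spontaneous 100%, and 14892 and 12468 in spontaneous 21%. The difference was -0.65 with quantile and -0.57 with cyclic loess normalization. Tlr4 was called in no comparison, with means of 355 ± 41.6, 354 ± 16.4, 493 ± 61.3 and 347 ± 44.8 in mechanical 100%, mechanical 21%, spontaneous 100% and spontaneous 21% and adjusted p between 0.13 and 0.99. Cyba, the only measured gene of 6 listed for the phagocyte oxidase, fell in mechanical 100% against mechanical 21% (-0.49 ± 0.11, adjusted p = 0.0095), a call lost without letter b of mechanical 100% or letter b of mechanical 21% (highest adjusted p 0.059). Serpina1, the inhibitor of neutrophil elastase, rose there (1.06 ± 0.15, adjusted p = 0.002).

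Markers of cell types were summed per sample as a measure of what else the tissue held. Of 12 defining neutrophil markers, 4 were measured: Cxcr2, Lcn2, Mmp8 and Itgam. Their summed intensity was 6065 in both mechanical 100% samples, 4178 and 4290 in mechanical 21%, 4052 and 3618 in spontaneous 100%, and 5092 and 4806 in spontaneous 21%, so it was not highest where RatNP-3b was highest. Most of this sum was Lcn2, which injured epithelium also makes. Its means were 4215, 2955, 2249 and 4070 in mechanical 100%, mechanical 21%, spontaneous 100% and spontaneous 21%. Mmp8 averaged 1530, 1022, 1310 and 625 in that order of groups, and Cxcr2 was called in no comparison. Of the 4 markers Itgam was dim in all groups, at 57.9 ± 50.0, 50.7 ± 7.96, 41.7 ± 7.35 and 34.6 ± 11.5 in mechanical 100%, mechanical 21%, spontaneous 100% and spontaneous 21% (SD, n = 2 each).

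Markers of T lymphocytes, like RatNP-3b, were high in mechanical 21%. The sum of the T and natural killer list over 12 of 13 listed genes was 3217 and 3098 in mechanical 100%, 31532 and 33460 in mechanical 21%, 3501 and 3012 in spontaneous 100%, and 3779 and 3481 in spontaneous 21%. Of 9 tested, 8 were called higher in mechanical 21% than in spontaneous 21% (6.998% of all tested probe sets). Among them were Thy1, with a log2 difference of 5.13 ± 0.22 (adjusted p = 1.2e-05), Lck, a kinase of the T cell receptor, with 3.06 ± 0.23 (adjusted p = 3.2e-04), and Cd3g, a chain of that receptor, with 3.01 ± 0.16 (adjusted p = 4.0e-05). Cd8a and Cd8b were also among the 8, with 4.74 ± 0.99 (adjusted p = 0.019) and 2.17 ± 0.24 (adjusted p = 0.0017). The call for Cd8a was lost in 7 of 20 other settings and that for Cd8b in 0. Cd4, another of the 8 (1.04 ± 0.27, adjusted p = 0.041), lost its call in 10 of 20. Gzmb, Prf1 and Klrd1 were not higher in mechanical 21% than in spontaneous 21%. Gzmb, a granzyme, averaged 955 ± 83.2 in mechanical 100%, 462 ± 3.86 in mechanical 21%, 627 ± 86.6 in spontaneous 100% and 628 ± 85.2 in spontaneous 21% (SD, n = 2 each). Prf1 and Klrd1 were too dim to be tested, with means of 43.7 and 61.5 in mechanical 21%, against 109 and 87.0 in spontaneous 21%. None of the 12 was at or below 0 in all samples.

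Of the brown fat markers, 6 of 7 were measured, and Ucp1, Cidea and Fabp4 had the same order of groups as S100a8 had as deposited. They were named above for their correlation with S100a8 over these same samples, so this order is not a separate result. The sum of the 6 was 6940 and 8228 in mechanical 100%, 18498 and 19341 in mechanical 21%, 9703 and 9731 in spontaneous 100%, and 9540 and 9211 in spontaneous 21%, with Plin1 at or below 0 throughout. Lpl (lipoprotein lipase) did not have that order: it fell with oxygen in spontaneous lungs (-0.63 ± 0.10, adjusted p = 0.0069) and rose with ventilation in 100% oxygen (0.62 ± 0.10, adjusted p = 0.0059). Lep (leptin) was called in no comparison, with adjusted p between 0.23 and 0.97. Squamous epithelium, which also makes S100a8 and S100a9, had 6 of 12 markers measured and was highest in spontaneous 100%, at 11264 and 11688. The sum was 1676 and 2674 in mechanical 100%, 2769 and 3852 in mechanical 21%, and 4672 and 4216 in spontaneous 21%. Most of the sum in spontaneous 100% was Krt4, with a mean of 6557 ± 380. Its markers did not all share this order. Krt5, too dim on average to be tested, was highest in mechanical 21%, at 703 ± 48.1, against 102 ± 12.5 in spontaneous 100%. Krt14 averaged 737 ± 36.2 in mechanical 21% and 752 ± 73.7 in spontaneous 100%. Macrophage and monocyte markers, 5 of 12 measured, summed to 6607 and 6850 in mechanical 100%, 10461 and 11903 in mechanical 21%, 8235 and 9859 in spontaneous 100%, and 16197 and 11316 in spontaneous 21%. The part of these other cell types in the levels of RatNP-3b, S100a8 and S100a9 was not tested. Erythroid markers, 3 of 8 measured, summed to 9887 and 11932 in mechanical 100%, 15366 and 20082 in mechanical 21%, 18613 and 24258 in spontaneous 100%, and 25945 and 22390 in spontaneous 21%. Markers of type 2 alveolar cells, which define lung, were present in all samples, with sums of 27244 to 65437.

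**Figure D4:**
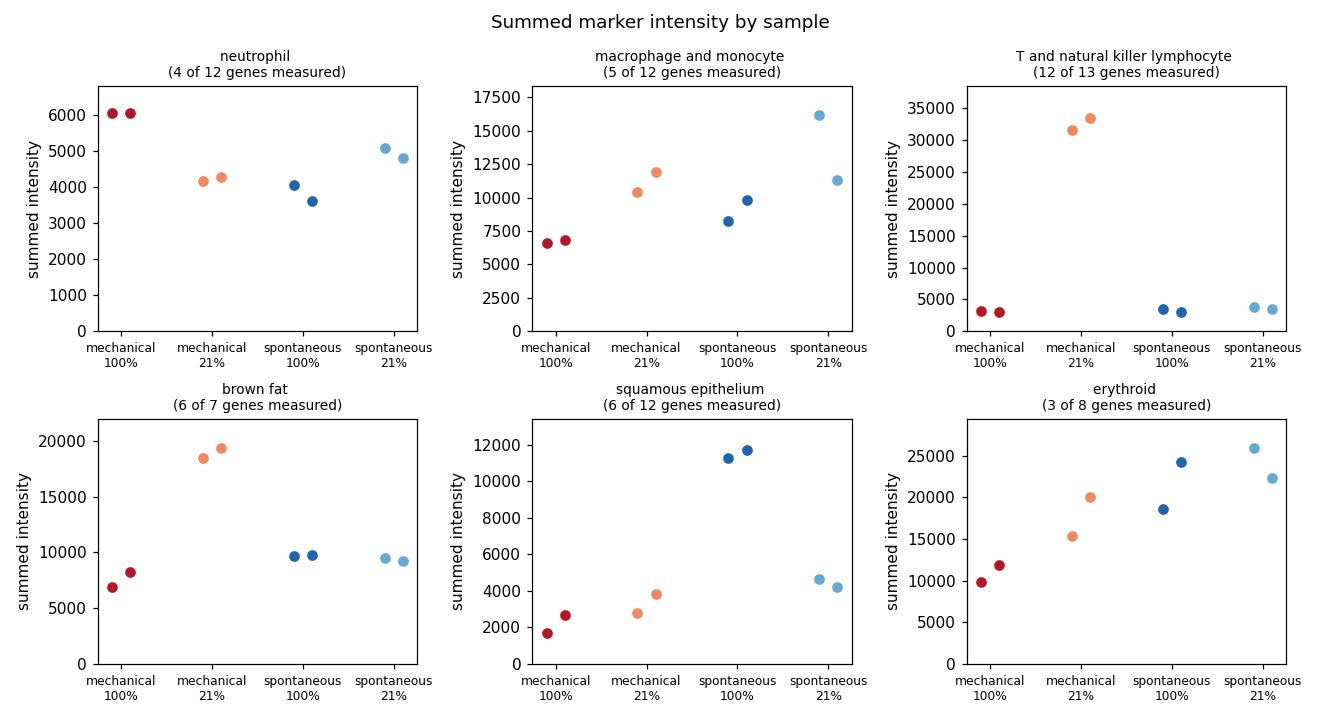
Summed deposited intensity (linear scale, values below 0 counted as 0) of the measured markers of 6 cell types in each of the 8 samples, by group. T and natural killer lymphocyte markers reach 31532 and 33460 in mechanical 21% and stay at or below 3779 elsewhere. The sum of the neutrophil markers, most of it Lcn2, is highest in mechanical 100%, at 6065 in both samples.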

How the data were processed

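Intensities, on a linear scale with some values below 0, were used as deposited by the authors for 9 oligonucleotide arrays of rat lung total RNA. Per the labels, titles and descriptions gave breathing, oxygen and letter. The 2% trimmed mean was 801 on every array, which was read from the values. The software behind them is not given in the sources used here. After removal of 59 control probe sets 8740 remained. Of these 7006 had 1 gene symbol, 308 several and 1426 none.

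Values below 0 were set to 0 and log2(intensity + 40) was taken. The 2 arrays of the letter b sample of mechanical 100% were averaged. The lowest 40% of probe sets by mean were not tested, leaving 5244 for 3181 genes. A group-means fit over 8 samples used limma 3.58.1 in R 4.3.3 (lmFit, eBayes with a mean-variance trend, 4 residual degrees of freedom), with Benjamini-Hochberg adjustment and a threshold of 0.05. The fitting step was tested on simulated data.

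A gene was represented by its brightest probe set with a single symbol. The genes of interest and all lists were chosen with earlier results of these data known. Named were up to 4 called genes of smallest p per list and comparison, any measured defensin, S100 or neutrophil marker, and the 5 genes most correlated with each gene of interest. C5ar1, Gzmb, Klrd1, Lep, Mmp9, Prf1, Srgn and Tlr4 were named after their values were seen. Cd4, Cd8a, Cd8b, Krt5, Krt14 and Plin1 were also named outside these rules. A promoter motif was searched on both strands. Python 3.11.15 with pandas 2.3.3 and matplotlib 3.10.9 made tables and figures. The letters did not pair samples: deviations from group means correlated between -0.13 and 0.07. Alternatives changed the normalization, offset, filter, use of the repeated arrays, trend, blocks and samples. The number of arrays limits the precision.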

Additional observations from a re-analysis of the deposited data

Results flagged for a closer look

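The following results stood out because the values of an effect had opposite signs, or differed by its own test, between the levels of the other factor. The oxygen difference of RatNP-3b was -1.96 in ventilated lungs, and the difference between it and the value in spontaneous lungs was -2.72. The value in spontaneous lungs, 0.75, is between readings within the scatter about 0, so no opposite direction is shown, and the difference was not tested, since the gene was selected on these arrays.

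The ventilation difference of S100a8 was -0.51 with 100% oxygen and 0.38 with 21% oxygen, and its oxygen difference was -0.66 in ventilated and 0.23 in spontaneous lungs. Either way of reading it gives -0.89, which was not tested. With quantile normalization the values that involve mechanical 100% were -0.01 for ventilation and -0.14 for oxygen.

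Lcn2 had a ventilation difference of 0.89 with 100% oxygen and -0.46 with 21% oxygen. In each case the samples of the groups did not overlap, which was not counted for other probe sets. The difference of 1.35 passed limma's test of the interaction (adjusted p = 0.0015), and it was called in all 19 other settings, with 1.34 after quantile and 1.41 after cyclic loess normalization.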

How the results depend on the processing

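With an offset of 8, RatNP-3b was at 5.61 and 2.16 for ventilation with 21% and 100% oxygen and at 1.37 for oxygen in spontaneous lungs, and with an offset of 80 ventilation gave 3.71 and 1.38. For S100a8, quantile normalization gave -0.01 for ventilation with 100% oxygen, 0.26 for oxygen in spontaneous and -0.14 in mechanical lungs, and cyclic loess gave -0.19, 0.26 and -0.33. For S100a9 ventilation with 100% oxygen and oxygen in mechanical lungs came to -0.04 and -0.15 with quantile and -0.20 and -0.31 with cyclic loess normalization. With the lot line as a block, S100a8 was at 0.30 and -0.45 for ventilation with 21% and 100% oxygen and at 0.15 and -0.60 for oxygen in spontaneous and mechanical lungs, and S100a9 was at -0.15 for ventilation with 21% oxygen and -0.27 for oxygen in spontaneous lungs. Only arrays without the lot line, an alternative chosen after the data were seen, gave S100a8 -0.45 for ventilation with 100% oxygen and -0.60 for oxygen in mechanical lungs.

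The counts of called probe sets, 760 and 1413 for ventilation with 21% and 100% oxygen, 879 and 1841 for oxygen in spontaneous and mechanical lungs, and 1439 for the interaction, were 106, 477, 128, 898 and 159 with the lot line as a block, which uses 9 arrays. Without the filter the first 3 were 490, 796 and 540. Fits of only the groups compared gave 473 for ventilation with 21% oxygen and 574 for oxygen in spontaneous lungs. Only arrays without the lot line gave 497 for ventilation with 100% oxygen and 933 for oxygen in mechanical lungs, from fewer arrays.

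With each sample left out in turn, the counts ran from 228 to 709 and from 474 to 1423 for ventilation with 21% and 100% oxygen, and from 370 to 796 and from 956 to 1904 for oxygen in spontaneous and mechanical lungs. A lone sample was then assumed to vary like the other groups. RatNP-3b ran from 1.37 to 2.04 for ventilation with 100% oxygen and from 0.42 to 1.09 for oxygen in spontaneous lungs. S100a8 ran from 0.35 to 0.41 for ventilation with 21% oxygen and from -0.69 to -0.63 for oxygen in mechanical lungs. S100a9 ran from -0.68 to -0.40 for ventilation with 100% oxygen and from -0.26 to 0.02 for oxygen in spontaneous lungs. The cause of these changes was not tested.

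With the letter as a replicate block the counts were 586, 1213, 667, 1661 and 1265. The letters did not pair the samples, and the block moved no count by more than 1.5 times.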
